A study of Homo sapiens with 30 samples.

Results

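ERK2 peaks that were called in ERG-expressing RWPE1 prostate cells, had no counterpart in the vector control cells and lay in open chromatin numbered 1780, of 5720 ERK2 peaks in the RWPE1-ERG list on chromosomes 1 to 22 and X. The peaks were chosen by 3 deposited lists: they came from the RWPE1-ERG ERK2 list, overlapped none of the 41265 peaks of the RWPE1-Vector ERK2 list, and overlapped at least 1 bp of the 62950 RWPE1-ERG ATAC-seq peaks. ERK2 enrichment, the absence of a vector peak and accessibility in RWPE1-ERG cells are therefore properties of the selection and were given no test. A further 573 RWPE1-ERG ERK2 peaks were open and shared with vector cells, and 3065 had no vector peak but lay outside open chromatin. These groups, and the 58093 RWPE1-ERG ATAC-seq peaks without an ERK2 peak of either list, served for comparison.

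The series joined ChIP-seq, ATAC-seq and RNA-seq of RWPE1, an immortalised line of normal human prostate epithelium, to ask how ERK and AKT signalling bear on the oncogenic transcription factor ERG. Both ERK2 libraries came from cells that had been transduced with a retrovirus and cultured with EGF and bovine pituitary extract under selection. RWPE1-Vector cells carried the empty pQCXIH vector and RWPE1-ERG cells carried pQCXIH with ERG (UniProt isoform 1). The cells for ATAC-seq and RNA-seq carried pBabe-puro in addition, either empty or, in the mAKT lines, with activated AKT, whereas the ERK2 labels name pQCXIH alone. ERG binding was measured in RWPE1-ERG+mAKT cells and in VCaP, a prostate cancer line that expresses ERG from a TMPRSS2-ERG fusion, here without the PI3K inhibitor. H3K27me3 was measured in the vector and ERG lines and in RWPE1-ERG S96E cells, whose ERG has a mutation that mimics phosphorylation at a site of ERK2. Each ChIP-seq and ATAC-seq group had 1 library, with DNA of 3 ChIP experiments pooled per the study's methods, and each RNA-seq value was pooled by the authors over the libraries of a line. No replicate spread was available for any value below, so no test between lines was run and the intervals given, 95% Wilson intervals, cover counting error over peaks or genes only.

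ERK2 is a serine/threonine kinase at the end of the RAS/MAPK cascade, and it phosphorylates transcription factors such as ELK1, ERG and the FOS and JUN subunits of AP-1. ERG belongs to the ETS family, which recognises a GGAA core, and it is normally expressed in endothelium rather than in prostate epithelium. AP-1 dimers bind TGACTCA and are common at enhancers. An ETS site placed next to part of an AP-1 site forms the composite ETS/AP-1 site, which the paper writes as GGAAGTGA. The name is also used here for CGGAAGTG and AGGAAGTG, spellings of a motif that the paper relates to it. Both end in TG and hold the TGA of AP-1 only where an A follows. A ChIP-seq peak of a kinase marks DNA near which the kinase was crosslinked, since ERK2 is brought to chromatin largely through other proteins.

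The summits of 5 of the peaks show what the sequence motifs looked like in place. In the first 4 a composite site and an ERG peak of RWPE1-ERG+mAKT cells met. IGFL1 and IL1B are shown because their expression is described below, SERINC2 because its site lies closest to the summit, and C20orf85 because its ERK2 enrichment was the highest of the kind. The last, in TNFAIP8, carried an AP-1 site and ranked among the 5 most enriched. Each is 201 bases of the plus strand of GRCh37 centred on the summit, 5′ to 3′, and capitals mark composite sites and AP-1 sites on either strand.
IGFL1 window, chr19:46730126-46730326: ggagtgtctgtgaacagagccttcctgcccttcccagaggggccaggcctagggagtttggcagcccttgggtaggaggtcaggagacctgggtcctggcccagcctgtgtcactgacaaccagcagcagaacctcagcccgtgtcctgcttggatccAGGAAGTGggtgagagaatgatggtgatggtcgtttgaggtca
IL1B window, chr2:113569519-113569719: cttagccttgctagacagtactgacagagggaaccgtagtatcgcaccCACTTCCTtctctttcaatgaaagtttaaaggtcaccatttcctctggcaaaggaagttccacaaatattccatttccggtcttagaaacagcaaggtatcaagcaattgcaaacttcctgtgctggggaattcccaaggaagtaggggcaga
SERINC2 window, chr1:31869809-31870009: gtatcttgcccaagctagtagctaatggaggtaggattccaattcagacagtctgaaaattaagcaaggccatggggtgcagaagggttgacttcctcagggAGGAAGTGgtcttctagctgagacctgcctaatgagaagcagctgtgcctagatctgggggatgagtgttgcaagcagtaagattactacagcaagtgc
C20orf85 window, chr20:56702820-56703020: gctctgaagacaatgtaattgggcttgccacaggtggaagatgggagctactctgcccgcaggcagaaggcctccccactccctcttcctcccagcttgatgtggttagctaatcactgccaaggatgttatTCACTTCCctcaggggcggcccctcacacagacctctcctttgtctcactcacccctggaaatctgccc
TNFAIP8 window, chr5:118610107-118610307: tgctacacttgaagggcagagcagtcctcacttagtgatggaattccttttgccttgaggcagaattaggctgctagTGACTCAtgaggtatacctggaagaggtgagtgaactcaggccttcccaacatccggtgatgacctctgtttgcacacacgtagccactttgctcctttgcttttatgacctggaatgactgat

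The IGFL1 composite site AGGAAGTG began 58 bp to the right of the summit and the SERINC2 one began 2 bp to the right, both on the plus strand. The IL1B composite site was read on the minus strand, as CACTTCCT, and the C20orf85 one likewise, as TCACTTCC. Only the C20orf85 site spelled GGAAGTGA, since at IGFL1, IL1B and SERINC2 no A followed AGGAAGTG. The site in TNFAIP8, TGACTCA, began 23 bp to the left of the summit, an offset of -23.

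Enrichment at the selected peaks was modest. The fold enrichment over input ranged from 1.77 to 7.57 with a median of 3.53, against a median of 3.72 at the shared open peaks and 3.31 at the peaks outside open chromatin. The median width was 240.5 bp. The study's methods name a p-value limit of 0.001, which 1390 peaks (78.1%) met, while 98 (5.51%) had a q-value of at most 0.05 and 30 one of at most 0.01. The libraries were unequal: 15020233 ChIP reads and 9675359 input reads in RWPE1-ERG cells and 8393459 and 15658943 in RWPE1-Vector cells, with the longer list of peaks in the vector cells. At the border of the selection, the least significant peak had a −log10 p of 2.02, the nearest vector ERK2 peak to any selected peak lay 2 bp away, and the smallest overlap that excluded an open peak was 1 bp. The smallest overlap with an ATAC-seq peak was likewise 1 bp, beside a smallest gap of 1 bp among the peaks left out as closed. A vector ERK2 peak lay within 1 kb of 466 of the peaks (26.2%), against 14.4% of the closed peaks and 5.48% of open chromatin without ERK2, and the median distance was 5143.5 bp. The absence of a vector peak is thus an absence of overlap between called peaks, not a measured absence of ERK2.

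**Figure D1:**
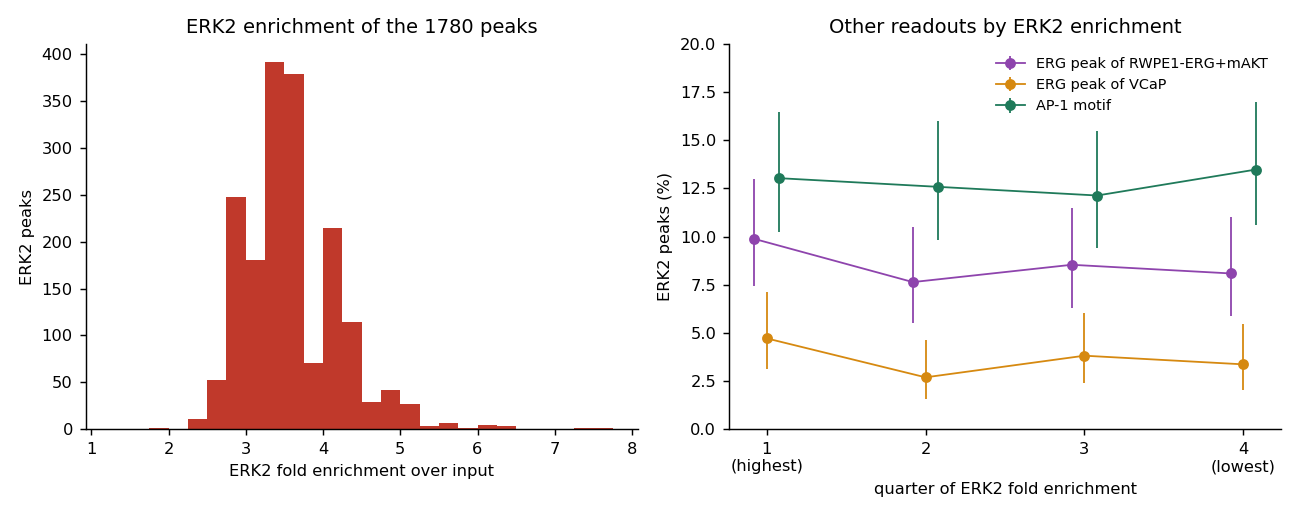
Left, number of the 1780 ERG-only open ERK2 peaks by MACS2 fold enrichment over input, in bins of 0.25. Right, share of them (%) that overlapped an ERG peak or held the AP-1 motif within 100 bp of the summit, in 4 groups of falling ERK2 fold enrichment (445 peaks each), with 95% Wilson intervals. The lower and upper quartiles are 3.17- and 4.04-fold, and the intervals of the 4 groups overlap for each readout.

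The 5 most enriched peaks lay in or at genes with unlike roles. The strongest, chr17:7387541-7388353, covered the start of POLR2A, which encodes the largest subunit of RNA polymerase II, with a fold enrichment of 7.57, a summit 100 bp from the start, and the nearest vector peak 2792 bp away. The next, chr5:95403521-95404287, spanned 767 bp in the host transcript of MIR583, reached 7.26-fold and overlapped an ERG peak of 6.03-fold in RWPE1-ERG+mAKT cells, with a vector ERK2 peak only 33 bp away. An intronic peak of RAPGEF1, a guanine nucleotide exchange factor for RAP1, reached 6.43-fold at chr9:134609687-134610277. Intronic TNFAIP8 at chr5:118610031-118610465 and exonic SAPCD2 at chr9:139956824-139957267 both reached 6.30-fold and both overlapped an ERG peak of RWPE1-ERG+mAKT cells, of 3.52- and 3.54-fold. The TNFAIP8 peak lay 10 bp from a vector peak and the SAPCD2 peak 1855 bp from one. Ranked by p-value, the same 4 regions of POLR2A, MIR583, RAPGEF1 and TNFAIP8 were joined by an intronic peak of PARN, a poly(A)-specific ribonuclease, at chr16:14580788-14580993. The PARN peak combined 4.76-fold ERK2 enrichment with a high pileup of 18.0, and it also lay in H3K27me3 regions of all 3 lines tested, which the other 4 did not.

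Accessibility of the peaks in the other lines was not part of the selection. Of the 1780 peaks, 1627 (91.4%, interval 90.0 to 92.6) were also open in RWPE1+mAKT cells, which carry no ERG, and 1546 (86.9%, 85.2 to 88.3) in RWPE1-ERG+mAKT cells. Both lines were open at 1500 peaks (84.3%) and neither at 107 (6.01%). Open chromatin without ERK2 was shared with these lines less often, at 71.0% and 56.0%, with intervals that did not meet those of the selected peaks. Within 1 kb of a gene start, however, the intervals overlapped. The selected peaks stood there at 95.8% (93.7 to 97.2) and 89.1% (86.1 to 91.5), against 94.3% (93.8 to 94.8) and 88.9% (88.3 to 89.5). Farther away they stood at 89.6% (87.8 to 91.2) and 85.9% (83.9 to 87.7), against 66.5% (66.1 to 66.9) and 49.6% (49.1 to 50.0). Over all positions, the shared open ERK2 peaks were at 95.1% and 88.7%. The interval for RWPE1+mAKT, 93.0 to 96.6, lay above that of the selected peaks, and the interval for RWPE1-ERG+mAKT, 85.8 to 91.0, overlapped that of the selected peaks. The shared open peaks were wider, with a median of 314 bp. With windows of 201 bp at each summit, the RWPE1+mAKT shares were 90.9% (88.3 to 93.0) at shared open and 88.2% (86.6 to 89.6) at selected peaks. These intervals overlapped. Peaks selected for ERK2 only with ERG thus lay mostly in chromatin that was also open in cells without ERG. Open chromatin of RWPE1-Vector cells was not analysed here.

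ERG itself was found at a minority of the peaks. An ERG peak of RWPE1-ERG+mAKT cells overlapped 152 of them (8.54%, 7.33 to 9.93), which is above the 2.25% (2.13 to 2.37) of open chromatin without ERK2 and the 0.979% of closed ERK2 peaks. It is below the 12.9% (10.4 to 15.9) of the shared open ERK2 peaks. VCaP ERG peaks overlapped 65 (3.65%, 2.88 to 4.63), against 1.85% of open chromatin without ERK2 and 5.41% (3.84 to 7.58) of shared open peaks, the last an interval that overlapped. Within 1 kb of a gene start the VCaP shares were 4.79% (3.26 to 6.97) at selected peaks and 3.44% (3.09 to 3.83) in open chromatin without ERK2. These intervals overlapped. Farther away the shares were 3.18% (2.34 to 4.30) and 1.54% (1.43 to 1.65), intervals that did not meet. Either list was met at 201 peaks (11.3%) and both lists at 16. The ERG peaks of RWPE1-ERG cells themselves were not analysed here, so these shares describe ERG binding in related lines.

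The comparison with other open chromatin was repeated at like strength and then with windows of equal width, but not with both at once. The 1780 ERK2 peaks lay in 1676 ATAC-seq peaks, 2.66% of all, which had a median ATAC fold enrichment of 6.42 against 6.40 without ERK2 but a median width of 857 bp against 469 bp. Within 4 equal groups by ATAC fold enrichment, 12.5% to 14.2% of the ATAC-seq peaks that held an ERG-only ERK2 peak overlapped an ERG peak of RWPE1-ERG+mAKT cells, and 1.40% to 3.13% of those without ERK2. In these groups the ATAC-seq peaks with ERK2 were still wider, with medians of 683 to 1198 bp against 350 to 546 bp. With windows of 201 bp at each summit or centre, which removes the difference in width, the shares were 7.47% (6.34 to 8.79) and 1.50% (1.40 to 1.60). The shared open peaks stood at 9.77% (7.60 to 12.5) by that measure, an interval that overlapped the one of the selected peaks.

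Among the peaks, the share with ERG differed little with the strength of ERK2. In 4 groups from the most to the least enriched, 9.89%, 7.64%, 8.54% and 8.09% had an ERG peak of RWPE1-ERG+mAKT cells, with overlapping intervals. It differed more with distance from genes. Of the 522 peaks within 1 kb of a protein-coding start, 3.26% (2.04 to 5.15) overlapped such an ERG peak, and of the 1258 farther away 10.7% (9.14 to 12.6) did. In VCaP the order was not the same, with 4.79% (3.26 to 6.97) near starts and 3.18% (2.34 to 4.30) elsewhere, intervals that overlapped.

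**Figure D2:**
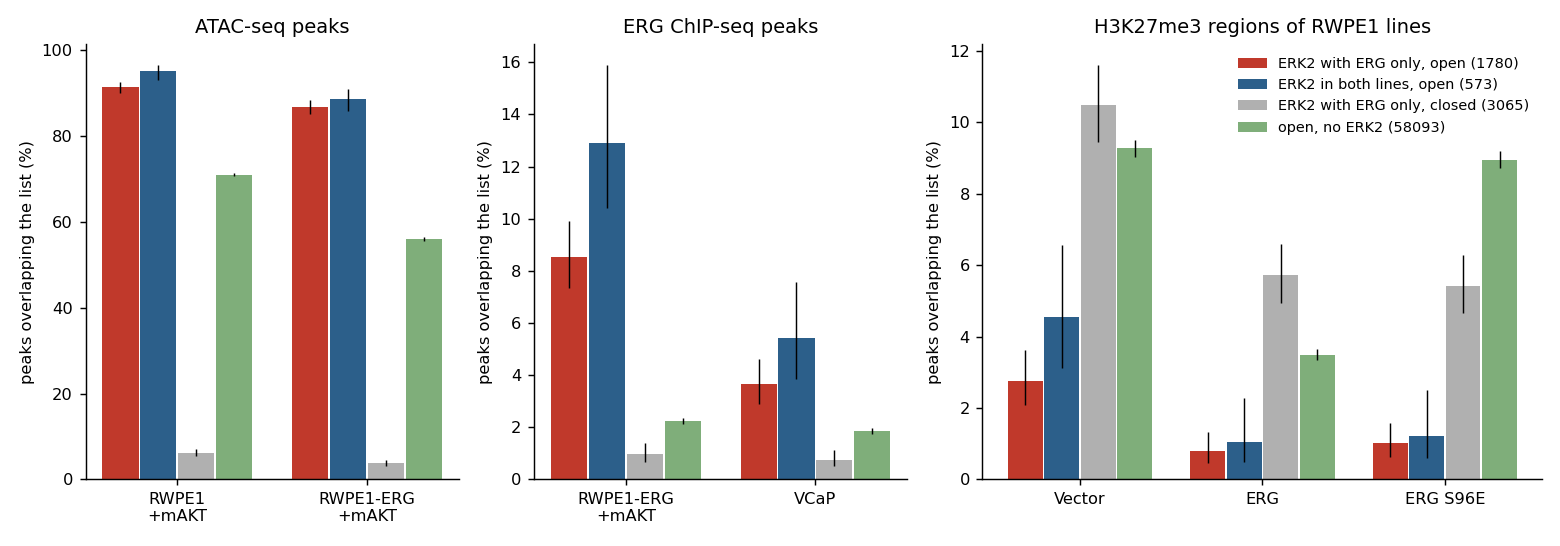
Share of peaks (%) that overlapped, by at least 1 bp, the ATAC-seq peaks of the mAKT lines (left), the ERG ChIP-seq peaks of RWPE1-ERG+mAKT and VCaP cells (middle) and the H3K27me3 regions of 3 RWPE1 lines (right), for the 1780 ERG-only open ERK2 peaks and the 3 comparison groups; bars show the share and error lines its 95% Wilson interval. For both ERG lists the selected peaks lie above open chromatin without ERK2 and below the shared open ERK2 peaks in share. They have the lowest share in the H3K27me3 regions of each line, with intervals that overlap those of the shared open ERK2 peaks.

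H3K27me3, the mark deposited by Polycomb repressive complex 2 at silent genes, was rare at the peaks. It covered 49 of them (2.75%, 2.09 to 3.62) in RWPE1-Vector cells, 14 (0.787%) in RWPE1-ERG cells and 18 (1.01%) in RWPE1-ERG S96E cells, and 1722 (96.7%) had none in any of these lines. Open chromatin without ERK2 stood at 9.27%, 3.49% and 8.95%, and closed ERK2 peaks at 10.5%, 5.71% and 5.42%. The shared open ERK2 peaks stood at 4.54% (3.12 to 6.57), 1.05% (0.481 to 2.27) and 1.22% (0.593 to 2.50). In each line their interval overlapped that of the selected peaks. The lists differed in length, with 492065 regions in vector cells, 228153 in RWPE1-ERG and 252649 in RWPE1-ERG S96E. With 228153 regions of lowest p taken from each list, the share in vector cells was 1.12% (0.729 to 1.73), so the higher value in vector cells moved with the number of regions called. In each line the interval of the selected peaks lay below that of open chromatin without ERK2.

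By position, 522 of the peaks (29.3%, 27.3 to 31.5) had their summit within 1 kb of a protein-coding gene start, against 16.2% of open chromatin without ERK2, 8.45% of closed ERK2 peaks and 26.5% (23.1 to 30.3) of shared open peaks. In GENCODE release 44 on GRCh37, 458 summits (25.7%) lay in exons, 806 (45.3%) in introns and 516 (29.0%) between genes. The median distance to a coding start was 8806 bp, against 33299 bp for open chromatin without ERK2, and 428 peaks (24.0%) lay more than 50 kb from one.

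AP-1 was the most common of the motifs searched that had 7 or more letters. TGACTCA, whose reverse complement is TGAGTCA, stood within 100 bp of the summit of 228 peaks (12.8%, 11.3 to 14.4), against 3.46% of equal windows placed 1 kb away on both sides. The share was 4.50% (3.82 to 5.30) at closed ERK2 peaks, 10.6% (8.38 to 13.4) at shared open peaks and 15.7% (15.4 to 16.0) in open chromatin without ERK2. The share at the selected peaks was thus below that of other open chromatin of the same cells, a comparison that mixes positions near to and far from genes. The 50 bp just left of the summit held 79 matches, the most of the 20 bins of 50 bp within 500 bp.

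The composite site CGGAAGTG or AGGAAGTG stood at 69 summits (3.88%, 3.07 to 4.88) and in 2.13% of flanking windows, beside 2.09% (1.64 to 2.66) at closed ERK2 peaks, 2.97% at shared open peaks and 3.50% (3.36 to 3.66) in open chromatin without ERK2. GGAAGTGA, which overlaps AGGAAGTG by most of its letters, stood at 29 summits (1.63%, 1.14 to 2.33) against 1.29% of flanks and 2.07% of open chromatin without ERK2. The ETS consensus CCGGAAGT stood at 18 summits (1.01%) against 0.253% of flanks and 1.06% of open chromatin without ERK2. The E-box CACGTG, bound by MYC and related factors, stood at 81 summits (4.55%, 3.68 to 5.62) against 2.39% of flanks and 3.72% (3.57 to 3.87) of open chromatin without ERK2. For each of these 4 motifs the intervals of the selected peaks and of other open chromatin overlapped. Of all RefSeq promoters of 300 bp, 4.95% held TGACTCA, 7.49% the composite site in the first pair of spellings, 3.48% GGAAGTGA, 4.14% CCGGAAGT and 7.26% CACGTG. The core GGAA alone stood at 91.5% of summits and in 82.9% of flanks, too frequent to mark a site.

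**Figure D3:**
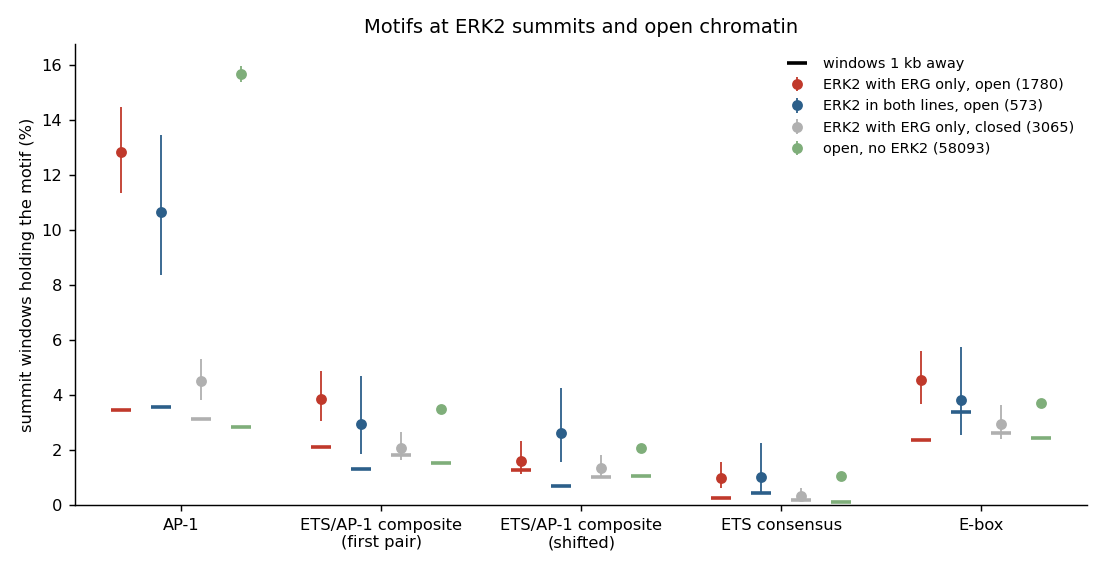
Share of 201 bp windows (%) at the summit that held AP-1 (TGACTCA), the composite ETS/AP-1 site (CGGAAGTG or AGGAAGTG, then the shifted GGAAGTGA), the ETS consensus (CCGGAAGT) or the E-box (CACGTG) on either strand, for the 4 groups of peaks; points show the share with its 95% Wilson interval and short bars the windows 1 kb to either side. At the selected peaks AP-1 stands at 12.8% against 3.46% in the flanks, and in open chromatin without ERK2 at 15.7%. CGGAAGTG and AGGAAGTG hold the TGA of AP-1 only where an A follows.

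Peaks near and far from gene starts differed in their motifs. AP-1 stood at 3.83% (2.49 to 5.84) of the peaks within 1 kb of a start and at 16.5% (14.6 to 18.7) of the others, beside 2.22% (1.94 to 2.54) and 18.3% (17.9 to 18.6) of open chromatin without ERK2 at these positions, so that the intervals overlapped for each position. The GC box GGGCGG, bound by SP and KLF factors, stood at 23.9% (20.5 to 27.8) and 9.94% (8.40 to 11.7). In open chromatin without ERK2 near starts, the GC box stood at 58.4% (57.4 to 59.4) and CCGGAAGT at 4.58% (4.18 to 5.02), each above the selected peaks near starts, where CCGGAAGT stood at 1.72% (0.910 to 3.24). At shared open ERK2 peaks near starts they stood at 21.1% (15.3 to 28.2) and 2.63% (1.03 to 6.57), intervals that overlapped those of the selected peaks. Summits of ERK2 peaks and centres of ATAC-seq peaks need not lie at the same distance from a start, and the part of that difference in these shares was not tested.

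The share with ERG differed with some motifs. ERG of RWPE1-ERG+mAKT cells overlapped 32 of the 228 peaks with AP-1 (14.0%, 10.1 to 19.1) and 7.73% (6.51 to 9.17) of those without, and 15 of the 69 peaks with CGGAAGTG or AGGAAGTG (21.7%, 13.6 to 32.8) and 8.01% (6.81 to 9.39) of those without. Of the 228 peaks with AP-1, 208 lay farther than 1 kb from a gene start. All selected peaks at that distance met this ERG at 10.7% (9.14 to 12.6), an interval that overlapped the one with AP-1. The part of position in the AP-1 difference was not tested. For VCaP ERG the AP-1 share was 1.75% (0.684 to 4.42) with the motif and 3.93% (3.07 to 5.02) without, with overlapping intervals. For the other spellings the counts were small. GGAAGTGA peaks met ERG of RWPE1-ERG+mAKT cells at 4 of 29 (13.8%, 5.50 to 30.6, against 8.45%) and CCGGAAGT peaks at 3 of 18 (16.7%, 5.84 to 39.2, against 8.46%), intervals that overlapped those without the motif. VCaP ERG met 5 of the 69 CGGAAGTG or AGGAAGTG peaks (7.25%, 3.13 to 15.9, against 3.51%) and 3 of the 29 GGAAGTGA peaks (10.3%, 3.58 to 26.4, against 3.54%), again with overlapping intervals. It met 4 of the 18 CCGGAAGT peaks (22.2%, 9.0 to 45.2) and 3.46% (2.70 to 4.42) of the others, intervals that did not meet. A composite site in any spelling and an ERG peak in either list coincided at 21 peaks. The strongest was chr20:56702812-56703053, 23038 bp from the start of C20orf85, with 4.63-fold ERK2 and 6.67-fold ERG in RWPE1-ERG+mAKT cells. Neither the RAB20 nor the IL1B peak was open in RWPE1+mAKT cells, while both were in RWPE1-ERG+mAKT cells. The RAB20 peak at chr13:111177017-111177201 was the one of the 10 most enriched of this kind with ERG in both lists, at 2.94-fold in RWPE1-ERG+mAKT cells and 5.72-fold in VCaP. A peak nearest to CCND2-AS1, chr12:4225476-4225673, lay 153339 bp from the start of CCND2 and had the highest ERG enrichment of the 10, at 8.47-fold. The others lay 12720 bp from the start of CSF2, 12503 bp from that of SERINC2, 24774 bp from that of IL1B and 2773 bp from that of IGFL1, in or near ANKRD13B and EXOSC4, and near LOC146880.

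Each peak was then given its nearest gene by the locus that the expression table lists. The summit lay inside the locus at 948 peaks (53.3%) and within 20 kb at 1511 (84.9%). The peaks reached 1478 genes, of which 1240 had 1 peak and 238 had 2 or more. Most peaks among any gene, 7, fell to HLA-DRB5, but at 694931 to 1900250 bp, because 228 genes of the table, on haplotype contigs of chromosome 6, have no position on the chromosome itself. PVT1, a long noncoding RNA beside MYC, RXRA, a nuclear receptor that pairs with retinoid and vitamin D receptors, and SLC7A5, an amino acid transporter, had 5 each. DENND3, an exchange factor for RAB GTPases, was one of 6 genes with 4 peaks, with ID1, PLEC, TPD52L2, GPX6 and PTK6.

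The nearest genes had higher FPKM than all genes, and few differed by 2-fold between the lines. FPKM, the table's unit, counts fragments per length of transcript and depth of library. Of the 1478 genes 1133 reached an FPKM of 1 in either line, and their median FPKM in RWPE1-ERG was 18.1, against 10.7 over all 12241 such genes. The median was 24.9 for genes nearest to shared open ERK2 peaks and 15.2 for those nearest to closed ERG-only ones. In 4 equal groups by vector FPKM, from high to low, 12.9%, 9.93%, 8.40% and 5.78% of genes were nearest to a peak. On the log2(FPKM + 1) scale, 48 of the 1133 genes (4.24%, 3.21 to 5.57) were at least 2-fold higher in RWPE1-ERG than in RWPE1-Vector cells, and of all expressed genes 3.62% were. At least 2-fold lower were 6 (0.530%, 0.243 to 1.15), against 0.988% of all. The share higher was thus close to that of all genes. The median log2 ratio was 0.05 (order-statistic interval 0.03 to 0.07) against -0.01 over all genes, and 56.4% were above 0 against 48.3%. For genes nearest to shared open ERK2 peaks the median was 0.08 (0.05 to 0.13), with 60.9% above 0. For those nearest to closed ERG-only ERK2 peaks it was 0.03 (0.01 to 0.04), with 54.0% above 0. Both intervals overlapped that of the selected peaks, so the shift was not particular to them.

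Histone genes made up part of the higher group. The 14 expressed histone cluster genes nearest to a peak had a median log2 ratio of 1.54, and 13 were at least 2-fold higher, as were 48 of all 58 expressed histone cluster genes, with or without a peak. Without histone cluster genes, 35 of 1119 nearest genes (3.13%, 2.26 to 4.32) and 3.24% of all genes were at least 2-fold higher. The shares that follow include histone cluster genes, whose part in them was not tested. Genes nearest to the 573 shared open ERK2 peaks stood at 30 of 358 (8.38%, 5.93 to 11.7), an interval above that of the selected peaks with histone genes included. Genes nearest to selected peaks with an ERG peak of RWPE1-ERG+mAKT cells stood at 4 of 101 (3.96%, 1.55 to 9.74) and those nearest to a peak with a composite site at 4 of 68 (5.88%, 2.31 to 14.2). Both intervals contained the share of all genes. For the 98 selected peaks that passed a q-value of 0.05, the nearest genes stood at 7 of 75 (9.33%, 4.59 to 18.0), an interval above the share of all genes that overlapped the one of all selected peaks.

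**Figure D4:**
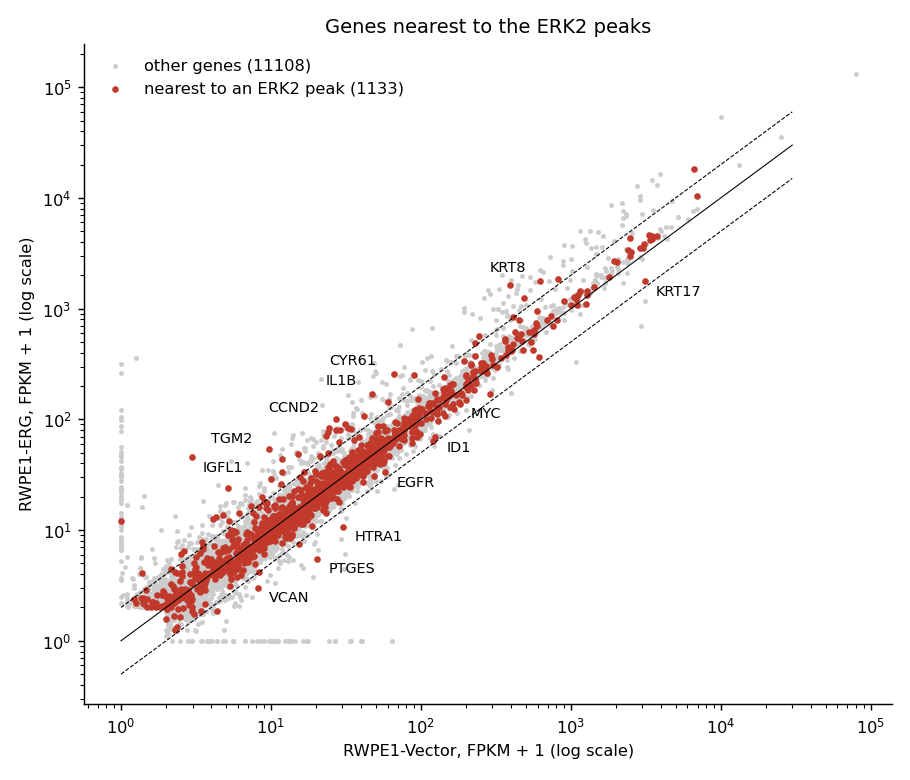
The authors' pooled FPKM + 1 in RWPE1-Vector (x axis) and RWPE1-ERG cells (y axis), both on log scales, for the 12241 genes that reached an FPKM of 1 in one of these lines; red points are the 1133 genes nearest to an ERG-only open ERK2 peak, the solid line marks equal values and the dashed lines 2-fold. Of the red points 48 lie on or above the upper dashed line and 6 on or below the lower one.

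Among genes with a peak inside or within 20 kb of the locus, the 10 highest and the 10 lowest ratios are given as the authors' pooled FPKM, with folds as ratios of FPKM without a pseudocount. IGFL1, a secreted protein of the IGF-like family, had the highest ratio, at 1.97 in vector and 44.5 in RWPE1-ERG cells (22.5-fold), and it stayed high at 50.4 in RWPE1-ERG+mAKT cells. Its peak, at chr19:46730117-46730301, carried both the AGGAAGTG shown above and an ERG peak of 4.24-fold, and also met an H3K27me3 region of vector cells. That peak lies inside the locus of the table but between genes in GENCODE. TGM2, a transglutaminase that crosslinks matrix proteins, had 8.73 and 53.5 (6.13-fold) with 2 peaks, but 4.18 in RWPE1-ERG+mAKT cells.

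CYR61, a matricellular protein and YAP target now called CCN1, had 65.4 and 255 (3.91-fold), with 1 of its 2 peaks within 1 kb of the start. CCND2, the G1 cyclin D2, had 26.3 and 99.3 (3.77-fold), also with a peak near its start. IL1B, the cytokine interleukin-1 beta, had 46.6 and 168 (3.60-fold), with its only peak 17717 bp away. In RWPE1-ERG+mAKT cells CYR61 stood at 51.5, CCND2 at 36.1 and IL1B at 44.6, so each of the 3 was nearer to the vector level there than to that of RWPE1-ERG cells.

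FSTL1, a secreted follistatin-like glycoprotein, had 10.9 and 42.6 (3.92-fold), with a peak 18701 bp away. RNU6ATAC, a small nuclear RNA of the minor spliceosome, had 393 and 1628. HIST1H2AD, HIST1H1E and HIST1H1D, which encode a core and 2 linker histones, completed the 10 highest at 3.67-, 3.57- and 3.38-fold. Transcripts of these 4 genes mostly lack a poly(A) tail while the libraries were selected for poly(A), and the part of that in these values was not tested.

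Lower in RWPE1-ERG cells was first PTGES, the prostaglandin E synthase, at 19.4 in vector and 4.51 in RWPE1-ERG cells (4.30-fold). VCAN, the matrix proteoglycan versican, had 7.17 and 2.01, and HTRA1, a secreted serine protease, 29.4 and 9.74. SLC39A8, a zinc and manganese transporter, and FAT2, an atypical cadherin of epithelial cells, were 2.33- and 2.22-fold lower. The remaining 5 differed by less than 2-fold, from 1.91-fold for the amino acid transporter SLC38A2 to 1.76-fold for EGFR, with ID1, MAST4 and IRF2BPL between. EGFR, the receptor upstream of ERK in these EGF-fed cells, had 57.1 and 32.4 and 2 peaks, 1 of them with AP-1. ID1, an inhibitor of basic helix-loop-helix factors, had 4 peaks at 8953 to 12078 bp, 1 with an ERG peak.

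Of the genes in 13 lists of signalling, adhesion and cell type genes, 43 of 187 (23.0%), expressed or not, were nearest to a peak. The share was 5.72% of all genes, expressed or not, and 9.26% of genes with an FPKM of at least 1. The lists were drawn up with earlier results of these data known and hold mostly expressed genes, so the count is a description. Among ERK feedback and early response genes, 5 of 20 were nearest to a peak, and 0 of these were past 2-fold in either direction, as were 0 of all 18 expressed genes of that list. The phosphatase DUSP6, which inactivates ERK, had 86.2 in vector and 59.6 in RWPE1-ERG cells, PHLDA1 31.7 and 23.9, and MYC 181 and 138, with 3 peaks at 377 to 1542 bp from MYC. IER2 and the receptor tyrosine kinase EPHA2 had ratios near 1, at 0.999 and 1.02, and both EPHA2 peaks overlapped an ERG peak of RWPE1-ERG+mAKT cells.

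Of 10 AP-1 subunits, FOSB, FOSL2 and FOS were nearest to a peak. FOSB had 2.61 and 1.15 and the highest ERK2 enrichment of the 3 at 5.25-fold, FOSL2 had 26.8 and 18.0 with 3 peaks, and FOS had 8.86 and 9.04 with a peak near its start. None of the 3 passed 2-fold on the log2(FPKM + 1) scale, where the lowest ratio was -0.75. Of 19 ETS factors ETV6 and ELK3 had a peak, at 2.17 and 3.68 and at 22.1 and 19.8 FPKM, and both ELK3 peaks held AP-1. Of 19 genes of the ERK cascade, the adaptor SHC1 had 2 peaks (167 and 123 FPKM), and the kinase RPS6KA1 had 2 that lay 45740 and 46661 bp away.

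No adhesion or migration gene of the lists with a peak passed 2-fold, beside 3.62% of all expressed genes higher and 0.988% lower. With or without a peak, 4 of 17 expressed migration and EMT genes were at least 2-fold higher. Of 17 integrins and laminins 1 was at least 2-fold lower. MMP14, a membrane-bound matrix metalloprotease, had 54.7 and 85.2 with a composite site in its peak, PLAU, the urokinase plasminogen activator, 23.6 and 32.6 with AP-1 in its peak, and CDH1, E-cadherin, 33.7 and 41.2 with an ERG peak of RWPE1-ERG+mAKT cells at both of its peaks. Of 17 integrins and laminins 5 had a peak, with log2 ratios from -0.19 for ITGA3 to 0.14 for LAMA5. Of 15 YAP/TEAD factors and targets 6 had one, and CYR61 was the only 1 of these 6 past 2-fold, beside AMOTL2 at 22.8 and 29.9 and CRIM1 at 25.5 and 32.2. With or without a peak, 4 of these 15 genes were at least 2-fold higher. Of 12 ERBB receptors and ligands 4 had a peak: EGFR, the ligand TGFA at 21.3 and 25.4, the EGFR inhibitor ERRFI1 at 32.0 and 35.3, and ERBB4, which was at or near 0 in all lines.

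The cell type lists gave both directions. The peak 1261 bp from KRT15, a basal keratin, held a composite site, and KRT15 had 33.3 and 80.3. KRT17, also basal, had 3105 and 1768 with AP-1 in its peak, and DST had 22.2 and 13.3. The luminal keratins KRT8 and KRT18, which share 1 locus in the table, had 622 and 1769 and 817 and 1843. The KRT8 peak lay inside that locus and the KRT18 peak 19060 bp from it. KLF4 was nearest to a peak 559689 bp away and GRHL3 to 2 peaks at 29105 and 35815 bp. Of the endothelial genes, CDH5, PECAM1 and TEK had a peak inside their loci but reached at most 0.0267 FPKM in either line, the value of TEK in RWPE1-ERG cells, and EGFL7, expressed at 14.1 and 22.3, had one 34530 bp away. The leukocyte gene PTPRC likewise had a peak in its locus and was at or near 0.

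As a check of the cells, all 5 basal markers were above 1 FPKM in every line, with a summed level of 9237 in vector and 3739 in RWPE1-ERG cells. KRT15 was the one basal marker of the 5 that was higher in RWPE1-ERG cells. The luminal keratins KRT8 and KRT18, given above, and KRT19, at 367 and 956, were also higher there, and the luminal gene KLK3 was listed at 0 in both lines. In bulk RNA, a different share of cells of a type and a different amount of RNA per cell cannot be told apart, and the part of these markers in the values of the nearest genes was not tested. The summed level of 4 endothelial markers was 0.0442 in vector and 0.0580 in RWPE1-ERG cells, of 4 leukocyte markers 0.770 and 0.509 and of 5 fibroblast markers 2.07 and 2.19. The label of prostate epithelium was thus met by basal keratins and TP63, without the luminal gene KLK3. ERG stood at 0.264 FPKM in vector and 358 in RWPE1-ERG cells.

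The peaks were spread unevenly over the chromosomes. Chromosome 20 had the highest share of ATAC-seq peaks with an ERG-only ERK2 peak, 91 of 2152 (4.23%, 3.46 to 5.16), followed by chromosome 9 at 3.61% and chromosome 17 at 3.51%. The lowest shares were on chromosomes X with 2 of 1657 (0.121%, 0.0331 to 0.439), 22 with 3 of 1347 (0.223%) and 18 with 6 of 1118 (0.537%). The vector ERK2 list also had few peaks on 22 and X, 0.300% and 0.666% of its total, and 0.960% on chromosome 18, while these held 2.14%, 2.63% and 1.78% of the ATAC-seq peaks. The scarcity on these 3 chromosomes was therefore shared by both ERK2 lists.

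**Figure D5:**
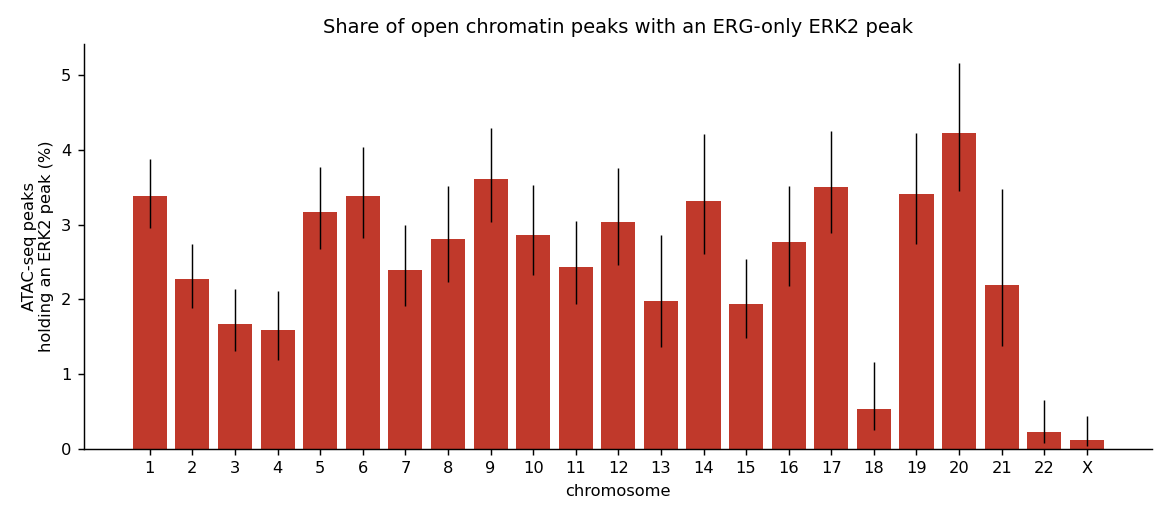
Share of RWPE1-ERG ATAC-seq peaks (%) on each chromosome that held an ERG-only ERK2 peak, with 95% Wilson intervals as error lines. Chromosome 20 is highest at 4.23%, and chromosomes 18, 22 and X are the lowest 3, at 0.537%, 0.223% and 0.121%.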

How the data were processed

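ERK2, ERG and H3K27me3 ChIP-seq and ATAC-seq peaks and RNA-seq of RWPE1 lines were taken as deposited. Per the study's methods the authors aligned ChIP-seq and ATAC-seq reads to hg19 with Bowtie2, removed duplicates with Picard and called peaks with MACS2, in broad mode for ATAC-seq, and removed blacklisted regions from the ChIP-seq data. The headers of the ERK2 lists name MACS2 2.1.2. The deposited lists give a pileup signal, a fold enrichment ratio over input or background, and a −log10 p and −log10 q per peak. RNA-seq reads were aligned with TopHat2. The deposited Cuffdiff table gives FPKM pooled by the authors over the libraries of each line. Its fold changes, test scores, p-values and q-values were not used, and it has 0 columns of single samples. The 2 lists whose names go against the sample they are attached to were not used.

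Overlap meant at least 1 bp. Motifs were searched on both strands within 100 bp of the summit, or of the centre for ATAC-seq peaks, on GRCh37. Genes and exons came from GENCODE 44 lifted to GRCh37 and promoters from RefSeq. The nearest gene was the one whose locus was nearest to the summit, ties going to the gene whose GENCODE body, then start, was nearest. Of the table's 26255 genes, 416 lie on other contigs or chromosome Y and were not used for this. Ratios used log2(FPKM + 1) and genes that reached an FPKM of 1 in either line, which understates changes of low genes. The peaks named were the 5 of highest fold enrichment, the 5 of lowest p and the up to 10 most enriched with a composite site and an ERG peak. The genes named were the 10 highest and 10 lowest ratios among genes with a peak inside or within 20 kb whose FPKM reached 5 in one line and exceeded 0.5 in the other, the 5 genes with most peaks, and up to 3 of each gene list. A few further genes of the lists, and the coincidence of motifs and ERG, were described after their values were seen. The peaks and gene lists were chosen with earlier results of these data known. Overlap, nearest gene, motif and interval code was checked with simulated data. Overlaps, intervals and tables used pandas 2.3.3, numpy 2.4.6 and scipy 1.17.1 in Python 3.11.15. Sequences were read with pysam 0.24.0 and samtools 1.23.1, and figures drawn with matplotlib 3.10.9. Some marker genes are not reported here.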

Additional observations from a re-analysis of the deposited data

How the results depend on the processing

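No paired analysis was possible because the deposited FPKM are pooled over the libraries of each line, and leaving out a replicate was not possible for the same reason or, for ChIP-seq and ATAC-seq, because each group has 1 library. Each of the 17 results was recomputed with the alternatives that apply to it, 117 values in all, and 94 stayed within the interval of the reported value or, for counts, within a factor of 1.5. A q-value of at most 0.05 left 98 ERK2 peaks. With the 33000 ATAC-seq peaks of lowest p, 94.3% of the ERK2 peaks were open in RWPE1+mAKT and 90.3% in RWPE1-ERG+mAKT cells, 1.98% lay in H3K27me3 regions of vector and 0.613% of S96E cells, and 32.0% lay within 1 kb of a gene start. With the summit inside the ATAC-seq peak the shares open were 94.3% and 90.2%. Counting 5 kb, 43.6% lay near a start. Windows of 50 bp to either side held AP-1 at 6.91%, CGGAAGTG or AGGAAGTG at 2.02%, GGAAGTGA at 0.955% and CCGGAAGT at 0.562%, and windows of 150 bp held the first 3 at 18.2%, 6.74% and 2.75%. Equal numbers of H3K27me3 regions gave 1.12% in vector cells. A pseudocount of 0.1 gave 6.09% of nearest genes at least 2-fold higher and 1.24% lower, against 4.94% and 1.81% of all genes, and without a filter on FPKM the median log2 ratio was 0.0167. Among alternatives chosen after seeing the data, leaving out histone cluster genes gave 3.13% higher, and equal windows around the summits (100 bp on each side) gave 88.2% open in RWPE1+mAKT and 82.4% in RWPE1-ERG+mAKT cells. The splits by ATAC enrichment and by distance from a gene start were also chosen after seeing the data. The vector library had fewer ChIP reads and more input reads than the RWPE1-ERG library, and 5.51% of the peaks passed a q-value of 0.05. Cutting the vector list to the length of the RWPE1-ERG list left 2064 peaks, and depth itself was not equalised.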

Other observations

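Further genes nearest to a peak were at least 2-fold higher in RWPE1-ERG than in RWPE1-Vector cells, and these are named after their values were seen. F3, tissue factor, which starts coagulation, had 2 peaks, 1 of them inside its locus, and a log2 ratio of 1.22. THBD, thrombomodulin, which restrains clotting, had a peak 101 bp from its locus and a ratio of 1.35. THBS1, the matricellular protein thrombospondin-1, had 3 peaks and a ratio of 1.10. F3 and THBS1 were lower in RWPE1-ERG+mAKT cells, at 196 and 163 FPKM, than in vector cells, at 242 and 229. Among epithelial genes, the tight junction protein CLDN1 had a ratio of 1.23, the keratin KRT80 1.51 and the transcription factor GATA3 1.27, the last with a peak 84790 bp away. These ratios are on the log2(FPKM + 1) scale and have no test.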
